A study of Mus musculus and Homo sapiens with 24 samples.

Results

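The zinc finger genes of chromosome 19 were examined in K-562, a human cell line from a chronic myeloid leukaemia. Members were chosen by 3 criteria: a protein-coding gene on chromosome 19 (hg38), a symbol made of ZNF and a number, and a mean of at least 1 CPM (gene counts scaled to the total of each library) over 12 libraries. This selected 193 of the 249 protein-coding genes of chromosome 19 with such a symbol, out of 58721 genes in the files. The mean level over all libraries chose the members, so that level is a description here. A gene can pass through the groups where it is high: 14 members had a mean under 1 CPM in at least 1 group. Among them were *ZNF677*, *ZNF350*, *ZNF256* and *ZNF418* in KO shControl, and *ZNF730* and *ZNF728* in WT shControl. The fold changes of such members are read with that in mind. At the threshold, *ZNF320*, *ZNF724* and *ZNF829* stayed out with 0.968, 0.982 and 0.993 CPM, and *ZNF677*, *ZNF837* and *ZNF285* came in with 1.006, 1.186 and 1.228 CPM.

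The study asked how loss of the dioxygenase TET2 and depletion of the methyl-binding protein MBD6 act together in leukaemia cells. Polyadenylated RNA was sequenced from 4 groups of K-562 with 3 libraries each. WT shControl cells were *TET2* wild type and carried a non-targeting short hairpin RNA (shRNA). WT shMBD6 cells were *TET2* wild type with an shRNA against *MBD6*, KO shControl cells lacked *TET2* (*TET2*-/-) and carried the non-targeting shRNA, and KO shMBD6 cells combined both changes. All 4 groups shared lentiviral delivery of the hairpin and culture in puromycin. The study received both a wild-type and the *TET2*-/- line from another laboratory, and whether the latter is 1 clone is not stated in the sources used here. It also lists wild-type K-562 from a cell bank, and which wild-type stock gave these libraries is not stated. Each group is 1 line, so p-values measure only the spread between its libraries, which may be technical, and a difference between the genotypes cannot be told apart from any other difference between these lines.

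ZNF genes encode proteins with runs of C2H2 zinc fingers, each a short loop that holds a zinc ion and reads a few bases of DNA. Most of those on chromosome 19 lie in clusters that grew by tandem duplication, and many carry a KRAB domain at the front of the protein. KRAB recruits the co-repressor TRIM28 (KAP1), which brings the histone methyltransferase SETDB1 and HP1 proteins and leads to H3K9 trimethylation, above all over retroelements. The ZNF clusters themselves carry this mark over the 3′ ends of their genes, where ZNF274 binds. By a script's search of the translated reference transcripts, members had a median of 13 finger motifs, and 124 of 193 (64.2%) matched a strict KRAB pattern. The 214 ZNF genes of other chromosomes that met the same level had a median of 9 fingers, and 35.0% of them matched the KRAB pattern. KRAB domains that depart from this pattern were not counted, so all such shares can be too low.

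Promoters of 6 members are given because these genes had the widest differences between genotypes or a known role, and because DNA methylation, the classical substrate of TET enzymes, falls on CpG sites. Each is the 250 bases before the annotated start of the canonical transcript (GENCODE, hg38), written 5′ to 3′ on the gene's strand, with CG in capitals. *ZNF43* (minus strand, chr19:21836183-21836432), *ZNF91* (minus, chr19:23395472-23395721) and *ZNF730* (plus, chr19:23116775-23117024) come from 1 cluster. *ZNF677* (minus, chr19:53254874-53255123) and *ZNF350* (minus, chr19:51986841-51987090) lie further along the long arm, followed by *ZNF418* (minus, chr19:57935403-57935652).
ZNF43: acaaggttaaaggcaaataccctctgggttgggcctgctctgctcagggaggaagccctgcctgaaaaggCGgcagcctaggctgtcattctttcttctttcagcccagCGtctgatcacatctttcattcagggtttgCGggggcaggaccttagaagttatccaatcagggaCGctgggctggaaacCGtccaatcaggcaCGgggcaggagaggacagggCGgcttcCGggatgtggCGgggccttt
ZNF91: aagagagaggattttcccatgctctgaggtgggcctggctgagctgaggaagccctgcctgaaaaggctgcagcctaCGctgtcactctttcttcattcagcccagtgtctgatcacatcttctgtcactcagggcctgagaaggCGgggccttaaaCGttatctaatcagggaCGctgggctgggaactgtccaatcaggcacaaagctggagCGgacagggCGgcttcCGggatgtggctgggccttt
ZNF730: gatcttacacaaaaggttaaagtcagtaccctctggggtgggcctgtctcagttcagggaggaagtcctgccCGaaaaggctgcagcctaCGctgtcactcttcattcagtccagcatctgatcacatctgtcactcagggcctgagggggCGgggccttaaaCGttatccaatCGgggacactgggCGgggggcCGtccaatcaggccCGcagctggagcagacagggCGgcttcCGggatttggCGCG
ZNF677: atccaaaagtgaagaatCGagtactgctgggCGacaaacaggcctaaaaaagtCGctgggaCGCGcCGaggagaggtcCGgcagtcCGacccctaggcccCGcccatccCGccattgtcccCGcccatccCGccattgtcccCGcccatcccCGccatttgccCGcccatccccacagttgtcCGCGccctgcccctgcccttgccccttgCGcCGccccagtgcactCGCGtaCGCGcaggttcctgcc
ZNF350: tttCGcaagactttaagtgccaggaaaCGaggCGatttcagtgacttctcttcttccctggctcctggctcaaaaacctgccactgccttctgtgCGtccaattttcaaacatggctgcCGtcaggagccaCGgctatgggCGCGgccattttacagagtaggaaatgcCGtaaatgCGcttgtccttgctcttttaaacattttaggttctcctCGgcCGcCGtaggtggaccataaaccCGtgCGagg
ZNF418: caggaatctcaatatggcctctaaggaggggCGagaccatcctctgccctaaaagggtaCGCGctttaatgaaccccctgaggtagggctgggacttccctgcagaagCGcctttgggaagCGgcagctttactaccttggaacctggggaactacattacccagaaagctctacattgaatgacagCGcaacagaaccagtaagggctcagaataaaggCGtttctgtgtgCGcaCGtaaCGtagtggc
CG reads the same on both strands, so each site was counted once. *ZNF43* held 9 such sites, *ZNF91* 7, *ZNF730* 12, *ZNF677* 23, *ZNF350* 15 and *ZNF418* 10. Of all protein-coding promoters of the same length, 86.5%, 89.5%, 81.5%, 45.9%, 74.1% and 85.1% held at least as many sites as these 6 genes, in that order. The promoters of *ZNF43* and *ZNF91* were 80.5% identical in a global alignment, those of *ZNF43* and *ZNF730* 78.2% and those of *ZNF91* and *ZNF730* 77.2%. Among the 25 members of their cluster the median identity of all pairs was 74.7%, against 50.6% among the 33 members of the cluster that holds *ZNF677* and *ZNF350*. *ZNF43* was lower in KO cells while *ZNF91* and *ZNF730* were higher, so 3 related promoters belonged to genes that moved in different directions. The canonical starts of *ZNF43* and *ZNF730* lie inside the annotated spans of these genes, and which starts K-562 cells use was not tested.

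The libraries held 27625013 to 39877202 gene counts. *MBD6* was at 77.3 to 88.4 CPM in WT shControl and 36.8 to 38.9 CPM in WT shMBD6 (log2 fold change -1.12), and at 73.4 to 82.3 CPM in KO shControl and 42.4 to 43.9 CPM in KO shMBD6 (-0.84). *TET2* counts did not check the genotype (log2 difference 0.12 between KO and WT shControl, edgeR adjusted p = 0.174). The erythroid markers that define K-562 were present, with 11 of 12 above 1 CPM in a group. Their summed level was 2630 to 2728 CPM in WT shControl, 3439 to 3757 in WT shMBD6, 1484 to 1541 in KO shControl and 1461 to 1474 in KO shMBD6, and its part in the differences below was not tested. The label calls the cells lymphoblasts, yet only 1 of 6 B-lymphoid and 1 of 6 T-lymphoid markers passed 1 CPM. Summed myeloid markers (2 of 7 above 1 CPM) were at 36.7 to 40.5 CPM in WT shControl and 51.8 to 53.3 CPM in WT shMBD6, and mesenchymal markers (3 of 6, all collagens) at 1.85 to 2.26 and 10.6 to 11.9 CPM. In the KO groups they ran from 36.4 to 38.5 and from 3.98 to 7.33 CPM. The third KO shMBD6 library stood apart from its replicates, with a chi-square per gene of 9.77 and 8.05 against them and at most 5.46 between other replicates. *ZNF675* was at 42.00 CPM in it and at 18.2 and 17.5 CPM in the other two, and *ZNF566* at 21.5 against 7.86 and 9.24 CPM. Without that library 42 members were higher and 35 lower in KO against WT under shMBD6, 43 and 13 with the knockdown in KO, and 42 and 9 for the interaction. Added ERCC spike-in RNA made up 0.872% to 0.882% of gene counts in WT shControl and 0.320% to 0.397% in the other groups. All levels below are CPM after TMM normalisation, which sets the typical gene to no change. In bulk RNA, fewer cells of a kind and less RNA per cell cannot be told apart.

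Member levels were low. The median member had 9.52 CPM, the range was 1.006 to 203.3, and 94 of 193 members reached 10 CPM. Per kilobase of exon the median level was 1.95 CPM, against 3.23 for ZNF genes of other chromosomes, 7.98 for the other 701 protein-coding genes of chromosome 19 at the same threshold and 4.68 for the 13104 protein-coding genes tested. The highest level per kilobase was that of *ZNF146* (OZF), a protein made of fingers alone, at 49.1 CPM per kb. *ZNF428*, *ZNF581*, *ZNF787* and *ZNF317* followed at 19.8, 13.2, 12.6 and 10.7 CPM per kb. The summed level of all members was 3010 ± 21.9 CPM in WT shControl, 2918 ± 39.2 in WT shMBD6, 2880 ± 28.99 in KO shControl and 3012 ± 42.8 in KO shMBD6 (SD, n = 3). WT shControl had the highest mean for 85 members (44.04%, against 26.3% of all genes tested), and KO shControl the lowest for 67 (34.7%, against 23.3%).

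Between genotypes under the control hairpin, zinc finger genes more often fell than rose in KO cells. With edgeR and an adjusted p under 0.05, 60 of 193 members were lower and 18 higher in KO shControl than in WT shControl, where 20.7% of the 17936 genes tested were lower and 22.2% higher. The median log2 fold change of the members was -0.10, against 0.00 for all genes tested, so the common shift was small, and 19 members fell and 4 rose by at least 2-fold. These 2-fold counts include members under 1 CPM in a group, among them *ZNF677* and *ZNF730*. Among the 179 members with at least 1 CPM in every group, a count added after seeing the data, 52 were lower and 16 higher, and the other comparisons had 41 higher and 30 lower (KO against WT, shMBD6), 16 and 40 (knockdown in WT), 38 and 16 (in KO) and 33 and 9 (interaction). The 3 libraries of one group lay apart from those of the other for 94 members (48.7%), close to the 51.2% of all genes tested. Other protein-coding genes of chromosome 19 had 261 lower and 94 higher of 701 (median -0.09), whereas ZNF genes of other chromosomes had 40 lower and 72 higher of 214 (median 0.07). The median was thus below 0 for both sets of chromosome 19 genes and above 0 for ZNF genes elsewhere, a difference given by counts and medians without a test. With ERCC counts as the scaling, the median of all genes moved up by 1.26 and 172 members were higher and 8 lower. Of all 17936 genes tested, 15959 were then higher and 222 lower. The members' median lay 0.0995 below that of all genes. Such scaling moves all genes alike, so it cannot test this distance.

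The widest fall was that of *ZNF677* (ENSG00000197928.10, chr19:53235381-53254898), a KRAB gene with 10 fingers that passed the level rule only through its WT libraries. Its level was 1.558, 1.179 and 1.148 CPM in WT shControl and 0.206, 0.140 and 0 CPM in KO shControl. The groups did not overlap, and the log2 fold change was -3.41 ± 0.47 (SE, edgeR adjusted p = 4.46e-06), from few reads and with an exon that overlaps a gene on the other strand. *ZNF350* (ENSG00000256683.6, chr19:51964340-51986856), known as ZBRK1 and as a repressor that works with BRCA1, stood at 4.24, 3.96 and 3.06 CPM in WT shControl. In KO shControl it was at 0.677, 0.673 and 0.255 CPM, again without overlap, a log2 fold change of -2.79 ± 0.26 (edgeR adjusted p = 1.51e-08). Each of these KO shControl libraries was under 1 CPM, so *ZNF350* met the level rule through other groups. *ZNF43* (ENSG00000198521.11, chr19:21804946-21852125), with 19 fingers, was the most abundant of the 6 most lowered genes. It had 12.5, 14 and 13.8 CPM in WT shControl and 2.09, 2.89 and 2.42 CPM in KO shControl, 5.43-fold lower with SE 0.12 on the log2 scale (edgeR adjusted p = 5.73e-13).

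A further 3 of the 6 most lowered members lie at the end of the long arm. *ZNF418* (ENSG00000196724.12, chr19:57921882-57935402) fell from 3.66, 4.64 and 3.44 CPM in WT shControl to 1.12, 0.364 and 0.541 CPM in KO shControl, by 2.54 on the log2 scale. *ZNF256*, its neighbour with 15 fingers, had 1.70, 1.48 and 1.81 CPM against 0.412, 0.252 and 0.191 CPM, a log2 fold change of -2.52. As all its KO shControl libraries were under 1 CPM, *ZNF256* met the level rule through other groups. *ZNF549* had 3.77, 4.21 and 4.84 CPM against 0.942, 1.54 and 0.828 CPM, a log2 fold change of -1.94. No library of one group reached the range of the other for any of the 3, and the largest of their edgeR adjusted p-values was 8.27e-06. Reads of *ZNF549* share an exon position with a gene on the other strand.

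The members that rose most sat together in the cluster between 19.67 and 24.13 Mb. *ZNF730* (ENSG00000183850.13, chr19:23075210-23147221), a KRAB gene with 10 fingers, passed the level rule only through its KO libraries and was at 0.109, 0.176 and 0.487 CPM in WT shControl. KO shControl had 3.39, 4.01 and 3.69 CPM, which made *ZNF730* 14.5-fold higher (log2 3.86 ± 0.31, edgeR adjusted p = 2.02e-09). *ZNF728* stood at 0.326, 0.652 and 0.522 CPM and then at 2.27, 2.55 and 2.197 CPM (log2 fold change 2.18). With every WT shControl library under 1 CPM, *ZNF728* met the level rule through other groups. *ZNF738* stood at 2.06, 3.16 and 3.20 CPM and then at 9.39, 9.36 and 8.41 CPM (log2 fold change 1.68). All libraries of KO shControl lay above all of WT shControl for these 3 genes. *ZNF730* and *ZNF738* overlap exons of another gene on their own strand, and how overlapping reads were shared out limits their values.

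*ZNF91* (ENSG00000167232.13, chr19:23304991-23395471), with 32 fingers, is known for repressing SVA retrotransposons. Its level was 3.04, 1.93 and 2.19 CPM in WT shControl and 4.12, 4.68 and 4.55 CPM in KO shControl, with a log2 fold change of 0.91 ± 0.17 (edgeR adjusted p = 0.000159). *ZNF208*, which had the most fingers of any member (36), stood at 8.15, 8.10 and 8.73 CPM in WT shControl and at 14.6, 15.98 and 15.7 CPM in KO shControl (log2 fold change 0.89 ± 0.08). Neither gene's groups overlapped. *ZNF235*, from another cluster at 43.53 to 45.08 Mb, had 1.88, 1.76 and 1.43 CPM in WT shControl and 3.77, 3.84 and 3.76 CPM in KO shControl (log2 fold change 1.16). It overlaps exons of 3 genes on the other strand.

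Under *MBD6* knockdown the same genotype comparison was balanced. KO shMBD6 had 44 members higher and 36 lower than WT shMBD6, where 22.9% of all genes tested were higher and 21.6% lower, and the median was 0.04 against 0.01 for all genes. For 105 members (54.4%) the libraries did not overlap, against 53.0% of all genes tested. ZNF genes of other chromosomes had 66 higher and 35 lower, and other chromosome 19 genes 143 higher and 233 lower. With ERCC scaling 114 members were higher and 16 lower, while the median of all genes moved by 0.30. Of the 17936 genes tested, 9700 were then higher and 1047 lower. Again 5 of the 6 most raised members were *ZNF730*, *ZNF728*, *ZNF738*, *ZNF91* and *ZNF235*, so their differences were seen in both sets of libraries. For *ZNF730* and *ZNF728* a rise in KO is partly set by the level rule, which they did not meet in WT shControl.

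The 2 genotype comparisons have no library in common. Among members, 11 (5.70%) were higher in both, 25 (12.95%) lower in both and 6 (3.11%) lower under shControl but higher under shMBD6. Of all genes tested the shares were 13.7%, 11.9% and 1.09%, so the share lower in both was near that of all genes. Across the 193 members the 2 sets of log2 fold changes had a Pearson r of 0.85 and a Spearman rho of 0.57 (0.73 and 0.53 across all genes tested). These are correlations across genes, which are not independent replicates. They include members with wide differences that met the level rule through 1 genotype only, such as *ZNF730* and *ZNF677*. *ZNF730* was at 0.446, 0.434 and 0.522 CPM in WT shMBD6 and 3.499, 3.82 and 5.13 CPM in KO shMBD6, an 8.82-fold difference (edgeR adjusted p = 6.59e-09). *ZNF43* had 12.1, 12.9 and 11.7 CPM against 3.07, 2.99 and 2.98 CPM, a log2 fold change of -2.02 (edgeR adjusted p = 7.91e-12). Neither gene's libraries overlapped between genotypes.

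In another cluster, at 36.18 to 37.82 Mb, 3 of the 6 most lowered members under shMBD6 were low in KO under both hairpins. *ZNF461*, a 10-finger gene, had 1.74, 2.66 and 2.44 CPM in WT shControl and 0.471, 0.505 and 0.955 CPM in KO shControl (log2 -1.84). Its levels were 2.44, 2.77 and 2.90 CPM in WT shMBD6 and 0.915, 0.646 and 0.418 CPM in KO shMBD6 (log2 -2.02). Every KO library of *ZNF461* was under 1 CPM, so it met the level rule only through its WT libraries. *ZNF875*, a KRAB gene, had log2 fold changes of -1.89 and -1.52, and *ZNF585A*, with 21 fingers, of -1.76 and -1.31. None of the 3 had overlapping genotypes, and the largest edgeR adjusted p of the 6 values was 3.07e-05. Other members of the cluster differed between hairpins: *ZNF585B* had log2 fold changes of -1.18 and -0.57 (interaction 0.61, edgeR adjusted p = 0.0257), and *ZNF850* of -0.57 and 0.10 (interaction 0.67, edgeR adjusted p = 0.00487). *ZNF285* was the one gene among the most raised under shMBD6 that was not called under shControl, at 0.506, 0.842 and 0.464 CPM in WT shMBD6 and 1.10, 1.11 and 1.70 CPM in KO shMBD6 (log2 1.10, edgeR adjusted p = 0.0113). That call was lost without the third WT shMBD6 or the third KO shMBD6 library, with an edgeR adjusted p of up to 0.0650. With every WT shMBD6 library under 1 CPM, *ZNF285* met the level rule through other groups.

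After knockdown of *MBD6* in WT cells more members were lower than higher, 2 of them by at least 2-fold. These 2, *ZNF285* and *ZNF837*, were under 1 CPM in WT shMBD6. Compared with WT shControl, 43 members were lower and 16 higher in WT shMBD6, where 19.2% of all genes tested were lower and 20.4% higher. The members' median was -0.13 against -0.01 for all genes, and 134 of 193 fold changes were negative. For 84 members (43.5%) the libraries did not overlap, below the 49.6% of all genes. ZNF genes of other chromosomes had 33 lower and 35 higher (median -0.03), and other chromosome 19 genes 217 lower and 146 higher (median -0.05). Under ERCC scaling the median of all genes moved up by 1.14, and 15437 of the 17936 genes tested were called higher and 38 lower. Of the members 188 were called higher. Their median lay 0.12 below that of all genes, a distance that this scaling leaves nearly unchanged by construction. WT shControl is the group with the high spike-in share, and the cause of that share was not tested.

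*ZNF285* and *ZNF837*, which sit near the level threshold, fell most. Every WT shMBD6 library of both was under 1 CPM, so they met the level rule through other groups. *ZNF285* went from 1.74, 1.05 and 1.36 CPM to 0.506, 0.842 and 0.464 CPM (log2 -1.17 ± 0.34, edgeR adjusted p = 0.00918). *ZNF837* went from 2.21, 1.505 and 1.53 CPM to 0.655, 0.896 and 0.928 CPM (log2 -1.07 ± 0.27, edgeR adjusted p = 0.00317). Neither gene's groups overlapped, and neither was called in KO cells. *ZNF836* (24 fingers), *ZNF671* and *ZNF345* had log2 fold changes of -0.88, -0.86 and -0.59, and the call of *ZNF345* was lost without the first WT shMBD6 library (edgeR adjusted p = 0.0549). *ZNF428*, a short protein of 188 residues with a single finger motif, was the most abundant of the 6 most lowered genes here, at 36.2, 38.4 and 37.4 CPM in WT shControl and 26.4, 21.4 and 26.2 CPM in WT shMBD6 (log2 -0.60 ± 0.08).

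The gene that rose most with the knockdown in WT cells was *ZNF208*. It reached 14.6, 15.8 and 15.4 CPM in WT shMBD6 from 8.15, 8.10 and 8.73 CPM in WT shControl, 1.84-fold higher (edgeR adjusted p = 3.52e-08). KO shControl was at 14.6 to 15.98 CPM and KO shMBD6 somewhat higher, at 15.7 to 16.7 CPM. The ranges of the 3 perturbed groups overlapped in part, and WT shControl stood apart. *ZNF121*, with 9 fingers, had 39.0, 41.4 and 42.7 CPM in WT shControl and 64.4, 61.8 and 64.2 CPM in WT shMBD6 (log2 0.63 ± 0.05, edgeR adjusted p = 1.81e-09). *ZNF567*, *ZNF529* and *ZNF160* rose by 0.40, 0.37 and 0.36 on the log2 scale, and *ZNF573* by 0.47. The call of *ZNF573* was lost without the second or the third WT shControl or the first or the third WT shMBD6 library, with an edgeR adjusted p of up to 0.1004.

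In KO cells the knockdown had the other balance. Compared with KO shControl, 42 members were higher and 16 lower in KO shMBD6, where 18.5% of all genes tested were higher and 16.3% lower. The median was 0.05 against 0.00 for all genes, and 84 members (43.5%) had libraries that did not overlap, against 44.9% of all genes. ZNF genes of other chromosomes had 36 higher and 35 lower, and other chromosome 19 genes 156 higher and 146 lower. With ERCC scaling 93 members were higher and 3 lower, with a move of 0.18 in the median of all genes. Of the 17936 genes tested, 6869 were then higher and 1055 lower. Reads outside genes made up 13.2% to 13.8% in KO shControl and 10.4% to 10.7% in KO shMBD6 (10.8% to 12.1% in WT), and the part of this in the result was not tested.

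The 4 members with the widest rise were also among the most lowered in KO shControl, and both comparisons use the KO shControl libraries. *ZNF256* went from 0.412, 0.252 and 0.191 CPM in KO shControl to 0.781, 1.35 and 0.669 CPM in KO shMBD6, 3.21-fold higher (edgeR adjusted p = 0.00165). *ZNF677* went from 0.206, 0.140 and 0 CPM to 0.323, 0.462 and 0.307 CPM (log2 1.58, edgeR adjusted p = 0.0294). The call of *ZNF677* was lost without the second or the third KO shControl or the second KO shMBD6 library (edgeR adjusted p of up to 0.103). *ZNF350* went to 1.21, 1.11 and 1.17 CPM (log2 1.10 ± 0.28, edgeR adjusted p = 0.00441) and *ZNF549* to 2.58, 2.09 and 2.23 CPM (log2 1.05 ± 0.22, edgeR adjusted p = 0.000732). All 4 were without overlap, and none of them reached the WT shControl range in KO shMBD6. *ZNF419* and *ZNF416*, from the same end of the chromosome as *ZNF549*, rose by 0.79 and 0.78 on the log2 scale.

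Members that fell with the knockdown in KO cells did so by less than 2-fold. *ZNF497* had 2.47, 2.13 and 2.61 CPM in KO shControl and 1.48, 1.48 and 1.34 CPM in KO shMBD6 (log2 -0.74 ± 0.19, edgeR adjusted p = 0.00433). *ZNF493*, with 19 fingers, had 25.2, 27.5 and 23.9 CPM against 18.1, 19.7 and 19.7 CPM (log2 -0.41 ± 0.07, edgeR adjusted p = 0.000164). Neither gene's groups overlapped. *ZNF546*, *ZNF573*, *ZNF235* and *ZNF780A* had log2 fold changes of -0.58, -0.54, -0.45 and -0.44. The call of *ZNF235* was lost when any 1 of the 6 KO libraries was left out (edgeR adjusted p of up to 0.125), and the call of *ZNF573* without the first KO shControl or the third KO shMBD6 library (up to 0.0571).

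Of the knockdown differences, 7 were higher in both genotypes (*ZNF121*, *ZNF791*, *ZNF333*, *ZNF529*, *ZNF160*, *ZNF550* and *ZNF587*), 4 lower in both (*ZNF780A*, *ZNF428*, *ZNF235* and *ZNF611*) and 7 opposite in sign (*ZNF792*, *ZNF850*, *ZNF573*, *ZNF331*, *ZNF264*, *ZNF530* and *ZNF551*). As shares of the members these were 3.63%, 2.07% and 3.63%, against 9.96%, 7.74% and 3.02% of all genes tested. These 2 comparisons share no library either. Across members their log2 fold changes had a Pearson r of 0.28 and a Spearman rho of 0.24 (0.40 and 0.38 across all genes tested). *ZNF160*, with 20 fingers, was among those that rose in both, from 36.7, 33.3 and 35.4 CPM to 43.1, 49.0 and 43.0 CPM in WT and from 34.5, 34.0 and 30.2 CPM to 43.1, 43.4 and 50.3 CPM in KO. Its groups did not overlap in either genotype.

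The interaction tests whether the knockdown effect in KO cells differs from that in WT cells. For 36 members it was higher in KO and for 9 lower, where 10.3% of all genes tested were higher and 11.0% lower. The members' median was 0.20, against 0.01 for all genes tested, 0.01 for ZNF genes of other chromosomes (18 higher, 18 lower) and 0.04 for other chromosome 19 genes (122 higher, 70 lower). Of the 193 values, 140 were above 0. Under ERCC scaling the median of all genes moved by -0.96 and 157 members had a lower effect in KO, as had 13265 of the 17936 genes tested. The direction is thus relative to the typical gene. The members' median lay 0.18 above that of all genes, a distance nearly fixed by construction under this scaling.

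*ZNF331*, an imprinted KRAB gene in many human tissues, had opposite signs in the 2 genotypes. It had 10.0, 9.76 and 11.5 CPM in WT shControl, 7.38, 7.25 and 6.78 in WT shMBD6, 8.54, 9.45 and 7.83 in KO shControl and 13.1, 11.4 and 11.4 in KO shMBD6. It fell by 0.54 in WT and rose by 0.47 in KO, an interaction of 1.01 ± 0.15 (edgeR adjusted p = 3.60e-05), and neither pair of groups overlapped. *ZNF350*, *ZNF549* and *ZNF416* had interactions of 1.28, 1.12 and 1.10 (edgeR adjusted p = 0.0116, 0.00709 and 0.00526). *ZNF418* had 1.30 ± 0.41 (edgeR adjusted p = 0.0257), lost without the second WT shControl, the second WT shMBD6, the second or the third KO shControl or the first KO shMBD6 library (up to 0.0966). *ZNF836* had 1.06 (edgeR adjusted p = 0.0493), a call that only 2 of the 12 single-library omissions kept, those of the first KO shControl and the third KO shMBD6 library (up to 0.155 otherwise).

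In the other direction, *ZNF573* had the largest interaction. It rose from 2.90, 2.63 and 2.30 CPM to 3.81, 3.37 and 3.65 CPM in WT and went from 5.39, 4.18 and 4.39 CPM to 3.66, 3.20 and 2.71 CPM in KO (interaction -1.01 ± 0.22, edgeR adjusted p = 0.00250). *ZNF208* had -0.81 ± 0.11 (edgeR adjusted p = 2.34e-05), with 0.88 in WT and 0.07 in KO (edgeR adjusted p = 0.509 for the latter). *ZNF708*, *ZNF507*, *ZNF562* and *ZNF493* had interactions of -0.45, -0.38, -0.34 and -0.33. *ZNF493* lost its call without the second WT shControl, the second WT shMBD6, the second KO shControl or the first KO shMBD6 library (edgeR adjusted p of up to 0.0722).

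Members were also grouped by their position along the chromosome. Genes less than 1 Mb from the next ZNF gene were taken as 1 cluster, which gave 16. The most distal one, from *ZNF628* to *ZNF446* at 55.48 to 58.48 Mb, holds 59 ZNF genes and 49 members and was singled out after its values were seen. In KO against WT shControl 22 of its 49 members were lower and 0 higher by edgeR (29 lower and 0 higher at an unadjusted p under 0.05, 23 and 0 with DESeq2), against 38 lower and 18 higher of the other 144. The median of its members was -0.24. Its 20 other genes tested had 5 lower and 0 higher, with a median of -0.09. Of all genes tested 20.7% were lower and 22.2% higher. Under shMBD6 the same genotype comparison had 10 of the 49 (20.4%) higher and 4 (8.16%) lower (median 0.05). Of all genes tested 22.9% were higher there and 21.6% lower, so the share higher was near that of all genes. After knockdown in KO 18 of the 49 (36.7%) were higher and 1 lower, *ZNF497*, whereas the other 144 had 24 higher and 15 lower. Of all genes tested 18.5% were higher and 16.3% lower with this knockdown. The 20 other genes of the cluster had 7 higher and 1 lower there, and a median of 0.33, above the 0.17 of its ZNF members. With ERCC scaling 43 of the 49 were higher and 3 lower in KO shControl, as were 15959 and 222 of the 17936 genes tested.

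The summed level of the distal members was 617.7 ± 3.37 CPM in WT shControl, 549.1 ± 11.3 in WT shMBD6, 517.8 ± 18.9 in KO shControl and 572.6 ± 9.36 in KO shMBD6 (SD, n = 3). Single libraries ran from 614.0 to 620.5, 536.2 to 556.8, 506.2 to 539.6 and 562.4 to 580.8 CPM, so only WT shMBD6 and KO shControl overlapped. *ZNF606*, *ZNF671*, *ZNF211* and *ZNF134* were among the 22 lowered members, with log2 fold changes of -1.47, -0.89, -0.78 and -0.75. The interaction was higher for 15 of the 49 and lower for 0 by edgeR (26 and 0 at an unadjusted p under 0.05, 15 and 0 with DESeq2), against 21 and 9 of the other 144. The 20 other genes tested in this cluster had 5 higher and 0 lower, with a median of 0.34 against 0.41 for its ZNF members. Of all genes tested 10.3% were higher and 11.0% lower. In WT shMBD6, 13 (26.5%) were lower and 2 higher than in WT shControl, where 20.8% of the other members and 19.2% of all genes tested were lower.

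The counts of the other clusters are read against all genes tested, of which 20.7% were lower and 22.2% higher in KO under shControl and 21.6% and 22.9% under shMBD6. The cluster from *ZNF101* to *ZNF254*, at 19.67 to 24.13 Mb beside the centromere, has 25 members and no other protein-coding gene tested, and in KO shControl 6 were higher and 5 lower. *ZNF43*, *ZNF90* and *ZNF486* fell there by 2.44, 1.41 and 1.35 on the log2 scale, while *ZNF626* rose by 0.87, so strongly raised and strongly lowered genes lay side by side. Its promoters held a median of 9 CG in 250 bases, against 16 for all members and 21 for protein-coding genes tested, and 84.0% of its members matched the KRAB pattern. The 21 members at 36.18 to 37.82 Mb had 9 lower in KO under either hairpin, while 2 and 3 of their 3 other genes tested were higher (medians 0.32 and 0.55). Of the 18 members at 43.53 to 45.08 Mb, 9 were higher in KO shMBD6 than in WT shMBD6, among them *ZNF229*, *ZNF296* and *ZNF222*. So were 9 of the 19 other genes there (medians 0.29 for the members and 0.34 for the others). Only 1 of the 18 members matched the strict KRAB pattern. Whether the rest carry a KRAB domain outside that pattern was not tested. Under shControl 3 of these 18 members were higher and 2 lower. Of the 33 members at 51.57 to 53.58 Mb, 13 were lower in KO shControl and 1, *ZNF175*, higher, and under shMBD6 7 were lower and 7 higher.

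Among members with textbook roles, *ZNF350*, *ZNF91* and *ZNF331* are described above. *ZNF274*, which brings SETDB1 to the 3′ ends of ZNF genes, had 65.8, 69.5 and 67.3 CPM in WT shControl and 55.4, 52.1 and 52.0 CPM in KO shControl (log2 -0.35, edgeR adjusted p = 0.000424). It had 59.3, 58.9 and 61.1 CPM in WT shMBD6 and 64.6, 61.9 and 81.2 CPM in KO shMBD6 (log2 0.21, edgeR adjusted p = 0.0174). Both pairs were without overlap, its interaction was 0.56 ± 0.10, and the second call was lost without the first or the second WT shMBD6 or the third KO shMBD6 library (up to 0.250). *ZNF93*, a repressor of L1 retrotransposons, was at 38.1 to 46.7 CPM throughout and was not called in any comparison. *ZNF224*, a repressor of the aldolase A gene, was at 19.1 to 22.7 CPM in WT shControl and 17.6 to 18.4 CPM in WT shMBD6 (log2 -0.21, edgeR adjusted p = 0.0277), a call lost without the second WT shControl or the first or the second WT shMBD6 library (up to 0.215).

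*ZNF175* (OTK18) was higher in KO than in WT cells under the control hairpin. It had 50.5, 45.2 and 47.5 CPM in WT shControl and 63.4, 62.8 and 64.8 CPM in KO shControl (log2 0.42 ± 0.05, edgeR adjusted p = 1.19e-06). *ZNF473*, which acts with the U7 snRNP in forming histone mRNA ends, was at 29.3 to 32.7 CPM in WT shControl, 32.5 to 35.4 in WT shMBD6, 32.7 to 37.1 in KO shControl and 43.6 to 46.6 in KO shMBD6. Its difference between KO shMBD6 and KO shControl was 0.36 ± 0.06 (edgeR adjusted p = 9.35e-05), without overlap. *ZNF146* had 186, 179 and 180 CPM in WT shControl and 216, 215 and 198 CPM in KO shControl (log2 0.21, edgeR adjusted p = 0.000102), the most abundant member in all 4 groups.

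Sequence features of members that were called are given beside those of members that were not. Members lower in KO shControl had a median of 12 fingers and 16 promoter CG sites, those higher 13.5 and 15, and those not called 13 and 16. Matches to the KRAB pattern were 65.0%, 55.6% and 65.2%. The median level was 6.85 CPM for the lowered, 9.29 for the raised and 13.1 for the members not called. These levels are means over all 12 libraries. They include the KO libraries in which the lowered members were low, so part of that low level can be the call itself. After knockdown in KO the 16 lowered members had a median of 15 fingers and 12 CG sites, against 12 and 16 for members not called. The quartiles of the CG sites overlapped (7.75 to 21 and 12 to 21). Of these 16, 5 lie in the cluster at 19.67 to 24.13 Mb, whose promoters had a median of 9 CG. Of the 16 members raised by the knockdown in WT 81.2% matched the KRAB pattern, against 64.9% of those not called. No test between these sets was run.

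Of the genes through which KRAB proteins act, a list of 34 co-repressor and H3K9 methylation genes had 33 tested. In KO against WT shControl 7 were higher and 5 lower, and under shMBD6 4 higher and 9 lower, where 22.2% and 20.7% and then 22.9% and 21.6% of all genes tested were higher and lower. *CBX5* (HP1 alpha) and *EHMT2* (G9a) were higher in KO under both hairpins, by 0.51 and 0.25 and by 0.19 and 0.30, and *ATF7IP*, the partner of SETDB1, was lower by -0.26 and -0.37. Knockdown gave 10 higher and 4 lower in WT and 7 higher and 8 lower in KO (all genes, 20.4% and 19.2%, and 18.5% and 16.3%). *DNMT3B*, *CBX1*, *KDM4B* and *MPHOSPH8* rose in both genotypes, and *PPHLN1*, *MTA2* and *NSD1* fell in both. The interaction was called for 1 higher and 7 lower (all genes, 10.3% and 11.0%). Of 10 tested genes of the PR-DUB deubiquitinase, the complex with MBD6, and its partners, *HCFC1* fell in KO under both hairpins (-0.36 and -0.48), and *ASXL1* fell with the knockdown in both genotypes (-0.14 and -0.20), as did *KDM1B* (-0.12 and -0.17).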

How the data were processed

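The study's 12 K-562 libraries were used, and the 12 mouse libraries were not used here. The authors trimmed reads with Trimmomatic 0.39, aligned them with HISAT2 2.2.1 to hg38 and counted them per gene with HTSeq 0.12.4 on GENCODE 29, and the deposited values are raw counts per gene and library. Reads with more than 1 alignment were not counted by HTSeq, so members with near-identical copies are uncertain. Whether strand was used in counting is not stated: 68 members overlap an exon on the other strand, 69 one on the same strand and 76 neither.

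Genes were annotated from GENCODE 44 (99.1% of identifiers matched). From the counts, edgeR 4.0.16 in R 4.3.3 (filterByExpr, TMM, glmQLFit, glmQLFTest, Benjamini-Hochberg) tested 17936 genes over all 12 libraries, with all 193 members among them, at an adjusted p under 0.05. The 92 ERCC rows stayed apart from the genes. Between replicates edgeR estimated a biological coefficient of variation of 0.0618. Replicates of a group differed by more than sampling noise. The test was also run on simulated data, and no outcome of that run is used here. Precision is set by depth (27625013 to 39877202 gene counts per library) and by 3 libraries per group, and the errors cover these libraries only.

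The members, lists and tests were chosen with earlier results of these data known. Named for each comparison were up to 6 members per direction with the largest fold change among those called and without overlap between groups, the 5 highest by CPM per kb, the genes at the threshold and members with textbook roles. Members of the pathway lists were named where called with the same sign in both genotype or both knockdown comparisons. Members named within a position cluster beyond this, and those given for both knockdowns, were chosen after their values were seen. Alternatives were DESeq2 1.42.0 (size factors and Wald test), library size without TMM, ERCC counts, no filter, only the 6 libraries compared, each library left out, a replicate block, and other level and distance thresholds (5 and 0.5 CPM, 0.5 Mb); the study itself put a spike-in factor into its size factors. Counts for the most distal cluster and for members with at least 1 CPM in every group were added after seeing the data. In at least 1 group 14 members had a mean under 1 CPM, and of the 56 ZNF genes under the threshold 33 were tested.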

Additional observations from a re-analysis of the deposited data

Results flagged for a closer look

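For 45 of the 193 members the effect of the knockdown differed between genotypes by a test of the interaction in edgeR (adjusted p under 0.05). The difference, KO minus WT on the log2 scale, was 1.30 for *ZNF418*, 1.28 for *ZNF350*, 1.12 for *ZNF549*, 1.10 for *ZNF416*, 1.06 for *ZNF836*, 1.01 for *ZNF331*, 0.98 for *ZNF419*, 0.96 for *ZNF530*, 0.90 for *ZNF433*, 0.79 for *ZNF234*, 0.78 for *ZNF606* and 0.78 for *ZNF229*. It was 0.77 for *ZNF304*, 0.75 for *ZNF264*, 0.71 for *ZNF792*, 0.70 for *ZNF563*, 0.67 for *ZNF850*, 0.62 for *ZNF211*, 0.61 for *ZNF585B*, 0.60 for *ZNF844*, 0.59 for *ZNF134*, 0.57 for *ZNF551*, 0.56 for *ZNF274* and 0.56 for *ZNF57*. Smaller positive differences were 0.54 for *ZNF823*, 0.54 for *ZNF77*, 0.53 for *ZNF226*, 0.50 for *ZNF417*, 0.48 for *ZNF180*, 0.47 for *ZNF550*, 0.45 for *ZNF524*, 0.45 for *ZNF557*, 0.45 for *ZNF136*, 0.43 for *ZNF347*, 0.39 for *ZNF44* and 0.25 for *ZNF266*. Negative differences were -1.01 for *ZNF573*, -0.81 for *ZNF208*, -0.45 for *ZNF708*, -0.38 for *ZNF507*, -0.34 for *ZNF562*, -0.33 for *ZNF493*, -0.33 for *ZNF121*, -0.31 for *ZNF714* and -0.15 for *ZNF146*. Of these 45 calls, 33 held in every fit without 1 library and 12 were lost in at least 1, with an edgeR adjusted p of up to 0.155 (*ZNF557*, *ZNF266*, *ZNF823*, *ZNF136*, *ZNF493*, *ZNF146*, *ZNF585B*, *ZNF836*, *ZNF524*, *ZNF550*, *ZNF417* and *ZNF418*). The call of *ZNF146* was lost in 8 of the 12 fits without 1 library (all but those without the first WT shControl, the second WT shMBD6, the third KO shControl or the third KO shMBD6 library), with an edgeR adjusted p of up to 0.0922. Replicates were compared by a chi-square per gene, which set the third KO shMBD6 library apart, and all 12 libraries were kept in the main fit.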

How the results depend on the processing

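ERCC scaling was the alternative that moved the counts furthest. It gave 172 members higher and 8 lower in KO against WT shControl, 114 and 16 under shMBD6, 188 and 0 for the knockdown in WT, 93 and 3 in KO, and 0 and 157 for the interaction. Of the 17936 genes tested, in the same order, it called 15959 higher and 222 lower, 9700 and 1047, and 15437 and 38. For the knockdown in KO it called 6869 and 1055 of all genes, and for the interaction 56 and 13265. In the most distal cluster it gave 43 and 3, 27 higher in KO against WT shMBD6, 47 and 0 for the knockdown in WT, and 0 and 35 for the interaction. The log2 fold change of single genes turned from below to above 0 under it, called or not: *ZNF224*, *ZNF331* and *ZNF274* (1.14, 0.98 and 0.91) in KO against WT shControl, *ZNF93* (0.29) under shMBD6, and with the knockdown in WT *ZNF837* (0.0685), *ZNF836* (0.26), *ZNF671* (0.28), *ZNF428* (0.54), *ZNF345* (0.55), *ZNF91* (0.90), *ZNF224* (0.93), *ZNF350* (0.96), *ZNF331* (0.60) and *ZNF274* (0.96). Interactions of *ZNF224*, *ZNF473* and *ZNF274* turned to -0.69, -0.72 and -0.40. The shift of all genes by that scaling is the source of these turns by construction.

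With a threshold of 5 CPM (fewer members), 39 were lower in KO against WT shControl and 23 under shMBD6. The 1 distal member lower with the knockdown in KO became 2 without TMM, without a filter, or with only the 6 libraries compared. Without a filter the members' median interaction was 0.27 above that of all genes, against 0.19 with the filter, and a gap of 0.5 Mb gave distal medians of 0.29 for the knockdown in KO and 0.48 for the interaction; the cause was not tested.

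Leaving out 1 library gave 16 to 20 higher and 48 to 63 lower in KO against WT shControl (17 to 25 distal lower), 33 to 44 and 31 to 40 under shMBD6, 11 to 20 and 30 to 45 for the knockdown in WT, 34 to 43 and 12 to 17 in KO, and 30 to 42 and 7 to 9 for the interaction. Distal members higher in KO against WT shMBD6 were 5 to 10, with 5 without the second WT shMBD6 and 6 without the second KO shMBD6 library. Distal members higher with the knockdown in WT were 1 to 2, with 1 without the second WT shControl or the first or the third WT shMBD6 library. Distal members lower with the knockdown in KO were 1 to 2, with 2 without the first KO shControl or the first KO shMBD6 library.

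The members' median above that of all genes was 0.0549 for the knockdown in KO and 0.0872 without the first KO shMBD6 library. In KO against WT shMBD6 it was 0.0296, and 0.00858, 0.0127 and 0.0153 without the first WT shMBD6, the third WT shMBD6 and the third KO shMBD6 library.

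Same-numbered libraries did not deviate together (correlations of -0.0276 to 0.0169), so the numbers do not pair the samples. With a replicate block 18 members were higher and 59 lower in KO against WT shControl (18 and 60 without the block), and no count moved by over 1.5 times. Low counts limit the genes near 1 CPM, and 3 libraries of 1 line per group limit what the p-values cover.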
